A study of Mus musculus with 6 samples.

Results

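The aminoacyl-tRNA synthetase genes are described here in C17.2 cells, an immortalized line of mouse neural stem cells (NSCs), after hypoxia/reoxygenation (H/R). The 36 genes were chosen by their symbols from the 14665 genes of the count table. Of these, 20 encode the cytosolic enzymes and 16, whose symbols end in 2, the mitochondrial ones. The cells were grown in medium with serum, and the paper names no knockdown in the sequenced groups. The control group was kept at standard oxygen, and the H/R group spent 12 h at 5% oxygen and then 48 h back at standard oxygen, a culture model of ischemia and reperfusion. Each group had 3 libraries of total RNA depleted of ribosomal RNA. All libraries came from 1 cell line, and nothing in the sources ties them to separate cultures.

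An aminoacyl-tRNA synthetase joins an amino acid to its tRNA at the cost of ATP, and the charged tRNA then delivers the amino acid to the ribosome. Animal cells translate in the cytosol and, separately, inside mitochondria, and the nuclear genome encodes a distinct enzyme for most amino acids in each of these places. Several cytosolic enzymes sit together in the multi-synthetase complex, and many cytosolic synthetase genes are known targets of ATF4, the transcription factor that is translated when eIF2 alpha is phosphorylated under amino acid shortage or endoplasmic reticulum stress.

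After H/R the mRNAs of most cytosolic synthetases were lower, while those of the mitochondrial synthetases, with the exception of Ears2, did not pass the test. Of the 35 members that passed the filter on low counts, 14 were lower in the H/R group at an adjusted p under 0.05 and 0 were higher. Among all 11104 tested genes, 19.0% were lower and 18.8% were higher, so that the calls of the series as a whole were evenly split. Of the 20 cytosolic genes 13 were lower (65.0%) and of the 15 tested mitochondrial genes 1 was lower (6.67%). The calls come from the quasi-likelihood test of edgeR, adjusted by Benjamini-Hochberg over all tested genes. No member was higher at an unadjusted p under 0.05 either, and DESeq2 and edgeR's exact test gave 0 as well. The median log2 fold change was -0.53 for the cytosolic genes and -0.03 for the mitochondrial genes, beside 0.01 for all tested genes. Without scaling factors, where the median of all genes moved to 0.22, these medians were -0.32 and 0.19 and 6 members were called higher. The set of cytosolic genes was not compared with the mitochondrial set by a test. In bulk RNA fewer cells of a kind and less RNA per cell cannot be told apart.

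**Figure D1:**
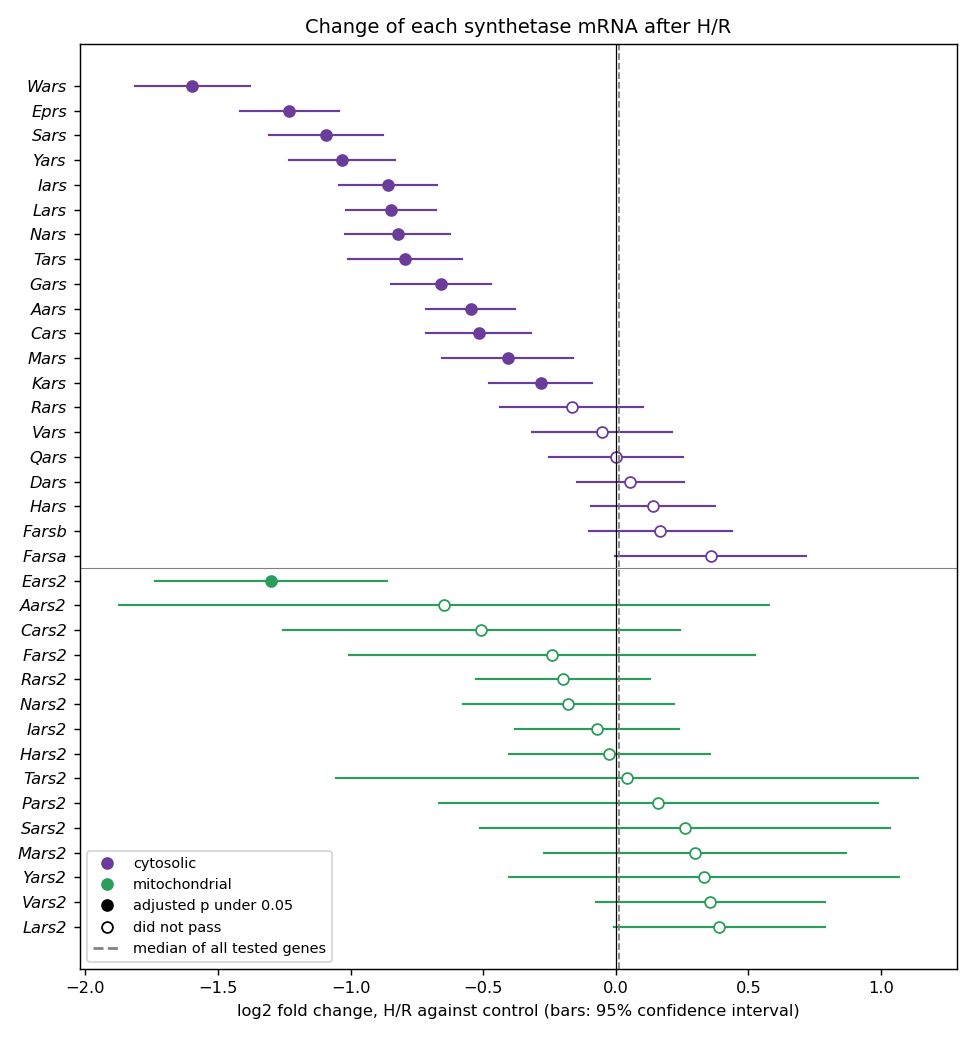
Log2 fold change of each tested synthetase mRNA in the H/R group against the control group (3 libraries each), with its 95% confidence interval as a bar, cytosolic genes above the line and mitochondrial genes below it. Filled points passed an adjusted p of 0.05 in edgeR's test, and all 14 of them lie left of 0, 13 in the cytosolic and 1 in the mitochondrial panel.

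Expression is given as CPM, the counts of a gene relative to those of its library, scaled with TMM factors, with the mean ± SD of each group of 3. The gene with the largest decrease was Wars (chr12:108860030-108894174, mm10, minus strand), which charges tRNA with tryptophan. Its level was 258, 245 and 260.0 CPM in the control libraries and 83.6, 93.3 and 75.3 CPM in the H/R libraries. The groups lay far apart, with 33.1% of the control level left after H/R (log2 fold change -1.60, SE 0.10, adjusted p = 1.605e-07 by edgeR). Eprs encodes the fused enzyme for glutamate and proline, and it was the cytosolic member with the most counts. It had 1350, 1227 and 1214 CPM in the controls and 508, 520 and 588 CPM after H/R, so again no library of one group reached the other (log2 fold change -1.23, SE 0.09, adjusted p = 4.362e-07 by edgeR). Sars, whose product charges serine and also starts the making of selenocysteine-tRNA, had 414, 470 and 537 CPM in the controls and 215, 222 and 229 CPM after H/R. Its control libraries were spread more widely than its H/R libraries, but the lowest control still stood well above the highest H/R value (log2 fold change -1.09, SE 0.10, adjusted p = 3.374e-06 by edgeR). Yars, for tyrosine, had 209.6, 228 and 232 CPM in the controls against 115, 111 and 102 CPM. Its H/R mean was 48.9% of the control mean, with no overlap (log2 fold change -1.03, SE 0.09, adjusted p = 3.221e-06 by edgeR).

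Wars, Eprs, Sars and Yars also changed by at least 2-fold with an unadjusted p under 0.05, the cut-offs that the study used, as did the mitochondrial Ears2, and no other member did. By these cut-offs 5.37% of all tested genes were lower. The next group of cytosolic genes fell to between 55.2% and 57.6% of control. Iars, for isoleucine, was at 389, 441 and 415 CPM in the controls and at 220.2, 224 and 242 CPM after H/R (log2 fold change -0.86, SE 0.09, adjusted p = 7.193e-06 by edgeR). Lars, whose product charges leucine and is also known as a leucine sensor upstream of mTORC1, fell from 424 ± 16.5 to 235 ± 3.07 CPM. Nars, for asparagine, fell from 828 ± 64.5 to 468 ± 42.0 CPM, and Tars, for threonine, from 332 ± 42.5 to 191 ± 4.23 CPM. The log2 fold changes of these 3 genes were -0.85, -0.82 and -0.79.

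Smaller decreases were found for the remaining cytosolic genes that passed. Aars, for alanine, fell from 651 ± 34.5 to 445 ± 6.15 CPM (log2 fold change -0.55, SE 0.08, adjusted p = 0.0001139 by edgeR). Cars, for cysteine, fell from 168 ± 9.81 to 117 ± 5.32 CPM, a log2 fold change of -0.52. Mars charges methionine, also onto the initiator tRNA with which translation begins, and fell from 174 ± 27.6 to 131 ± 3.15 CPM (log2 fold change -0.41, SE 0.11, adjusted p = 0.01262 by edgeR). The call of Mars depends on single libraries: its adjusted p by edgeR was 0.0574 without control replicate 2 and 0.0504 without H/R replicate 1, and it was 0.187 without scaling factors. The annotated span of Mars also overlaps that of Ddit3 on the other strand by 68 bases, and Ddit3 fell by 3.19 on the log2 scale. Whether counting used the strand is not given in the sources used here, and the part of such reads in the value of Mars was not tested. The same holds for other members with an overlap on the opposite strand, among them Wars with Wdr25 by 544 bases, Yars with C77080 by 30, Farsb with Sgpp2 by 2315, Cars2 with Naxd by 984 and Iars2 with Rab3gap2 by 2034. Hars and Hars2 overlap each other by 198 bases, and Aars overlaps Exosc6 on its own strand by 1326.

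Gars and Kars differ from the other cytosolic genes in that each of them makes both the cytosolic and the mitochondrial enzyme, for glycine and lysine. Gars had 750.0, 686 and 647 CPM in the controls and 414, 431 and 473 CPM after H/R (log2 fold change -0.66, SE 0.09, adjusted p = 6.556e-05 by edgeR). The H/R libraries all lay below the controls, at 63.3% of their mean. Kars had 167, 167 and 149.7 CPM in the controls and 131, 131 and 135 CPM after H/R. The groups of Kars did not overlap either, but the difference was the smallest of the 13 (log2 fold change -0.28, SE 0.09, adjusted p = 0.02507 by edgeR). Kars lost its call without control replicate 2 (adjusted p = 0.0833), without H/R replicate 1 (0.0942), H/R replicate 2 (0.0970) or H/R replicate 3 (0.0509), and without scaling factors (0.567), all by edgeR's test. Without both of these genes, 11 of 18 cytosolic genes were lower and their median was again -0.53.

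In 13 of the 20 cytosolic genes every H/R library lay below every control library, an arrangement that 24.0% of all tested genes showed. They were the 13 lower genes, and a call from the same libraries favors such a separation, so it adds no support. The enzymes of these genes serve 14 of the 20 amino acids. The 7 cytosolic genes that did not pass serve the other 6, which are arginine, valine, glutamine, aspartate, histidine and phenylalanine. Their log2 fold changes were -0.17 for Rars, -0.05 for Vars, 0.00 for Qars, 0.05 for Dars and 0.14 for Hars, with 0.17 for Farsb and 0.36 for Farsa, which make the beta and alpha subunits of the phenylalanine enzyme. Among these genes the groups of Hars did not overlap, and every H/R library lay above every control (53.2 ± 2.28 and 58.7 ± 2.49 CPM). Of the 11104 tested genes 2858 lay above in this way. The value of Farsa had the largest error among the cytosolic genes. Its libraries stood at 41.4, 27.7 and 27.8 CPM in the controls and at 40.9, 38.2 and 45.2 CPM after H/R, so control replicate 1 lay within the range of the H/R group (adjusted p = 0.1089 by edgeR). Without that library Farsa passed (log2 fold change 0.58, adjusted p = 0.005606 by edgeR), and so did Rars (-0.29, adjusted p = 0.02406). For all 7 genes the 95% confidence interval of the log2 fold change excluded -0.53, the median of the cytosolic genes.

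**Figure D2:**
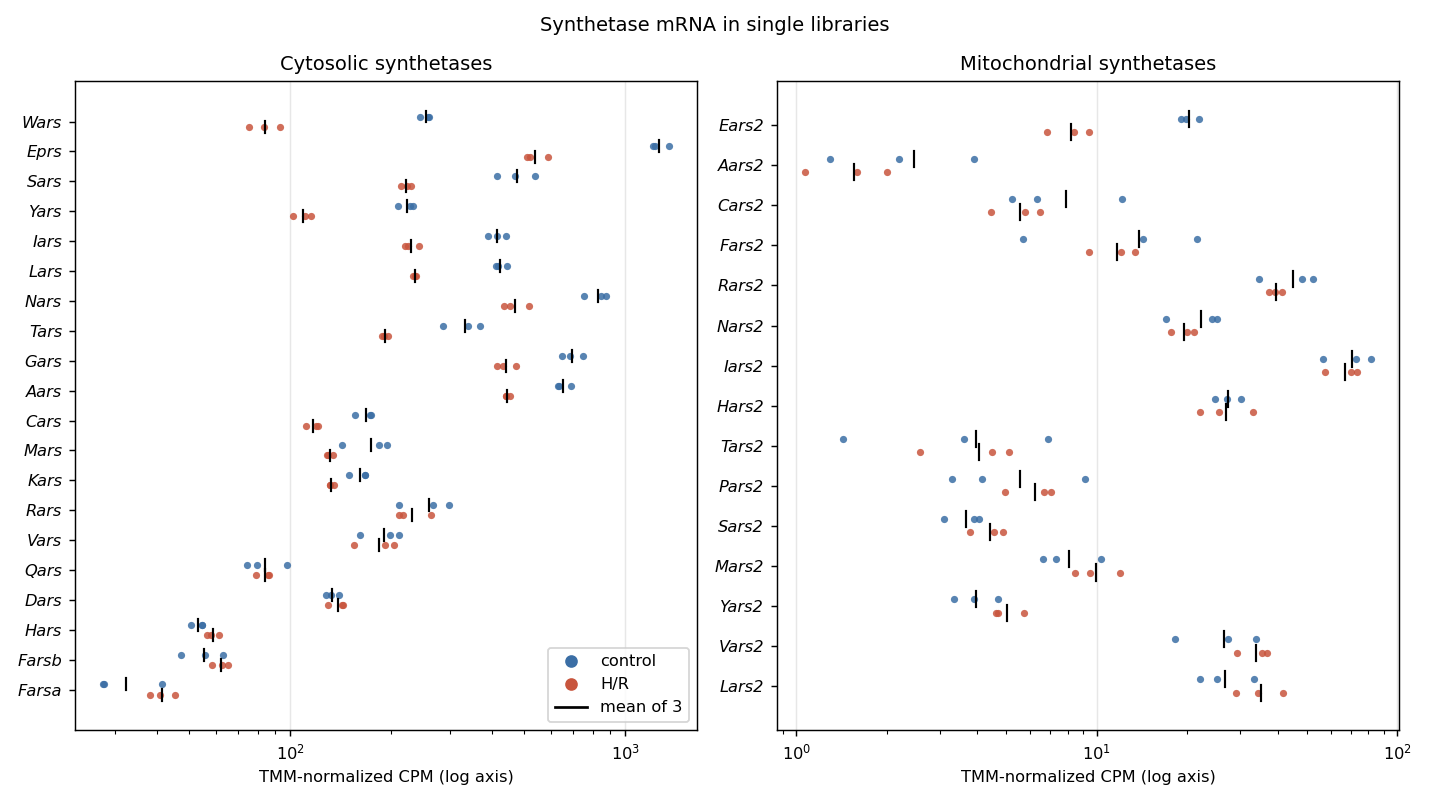
TMM-normalized CPM of each synthetase mRNA in every library on log axes, with control libraries in blue, H/R libraries in red and the mean of 3 libraries as a black tick. In the left panel the 13 cytosolic genes from Wars to Kars show no overlap between the groups, with the H/R libraries lower. Hars, which did not pass, shows no overlap either, with the H/R libraries higher. In the right panel Ears2 is the mitochondrial gene without overlap.

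The cytosolic genes were also grouped by how their products work. The multi-synthetase complex holds 8 of them, of which 5 were lower, with a median log2 fold change of -0.35. Of the 12 outside the complex 8 were lower, with a median of -0.60. By the fold of the catalytic domain, 7 of the 10 class I genes and 6 of the 10 class II genes were lower, with medians of -0.68 and -0.42. Eprs was counted in class I by its glutamate part, while its proline part is of class II. Lower genes thus made up 62.5% and 66.7% of the genes within and outside the complex, and 70.0% and 60.0% of the classes, each against 19.0% of all tested genes. Within the complex, Eprs, Iars, Lars, Mars and Kars were lower and Dars, Qars and Rars did not pass, so that the subunits did not share a single change.

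Windows with a known DNA motif beside the start are printed below only for members that were lower after H/R. TGATGNAA is the core of the C/EBP-ATF response element, to which ATF4 is known to bind as a dimer with C/EBP family proteins. RefSeq promoters on GRCm38.p6, each with 250 bases before and 50 after the annotated start, were searched for these 8 letters on either strand. Of the 13 cytosolic genes with a promoter in the table, 5 held the motif (38.5%), and these were Yars, Iars, Tars, Gars and Aars. Among the 27025 genes with a promoter 4.51% held it, and among the 14 mitochondrial members with a promoter 0 did. The following windows show it in capitals, 5′ to 3′ along the gene, where TTGCATCA and TTTCATCA are the motif read on the opposite strand. Those of Yars and Iars span the start, and those of Tars, Gars and Aars end 1 base before it.
Yars, chr4:129189895-129189924, plus strand: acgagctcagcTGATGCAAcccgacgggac
Iars, chr13:49682126-49682155, plus strand: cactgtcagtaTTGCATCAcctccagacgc
Tars, chr15:11399659-11399783, minus strand: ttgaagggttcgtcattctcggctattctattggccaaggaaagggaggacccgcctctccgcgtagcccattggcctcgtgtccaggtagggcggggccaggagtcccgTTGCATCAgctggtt
Gars, chr6:55037876-55038000, plus strand: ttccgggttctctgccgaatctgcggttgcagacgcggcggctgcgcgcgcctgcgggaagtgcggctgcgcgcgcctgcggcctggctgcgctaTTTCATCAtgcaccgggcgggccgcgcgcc
Aars, chr8:111033717-111033841, plus strand: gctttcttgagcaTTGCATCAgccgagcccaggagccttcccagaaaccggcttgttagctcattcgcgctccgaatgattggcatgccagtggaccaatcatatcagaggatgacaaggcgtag
The same positions of Yars2, the mitochondrial partner of Yars, hold no match, nor does the rest of its promoter in the table.
Yars2, chr16:16302957-16302986, plus strand: tccagcatgccttgcgtgtcccgcaagatg

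Counted from the start, with no position 0, the motif lay at 4 to 11 in Yars, 8 to 15 in Iars, -15 to -8 in Tars and -30 to -23 in Gars. Aars had 2 matches, at -112 to -105 and, just after the start, at 10 to 17. All 5 genes that held the motif were lower after H/R, out of 9 lower cytosolic genes with a promoter in the table. The 4 cytosolic genes with a promoter that did not pass, Dars, Farsa, Farsb and Qars, held 0 matches. The lower genes with a promoter and no match were Eprs, Sars, Mars and Kars. Cars, Hars, Lars, Nars, Rars, Vars and Wars were not searched. A match of 8 letters describes the sequence, and binding was not measured here. Whether the motif had a part in the lower levels was not tested.

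Among the mitochondrial synthetases, Ears2 stood alone. Its product charges glutamate onto the mitochondrial tRNAs for both glutamate and glutamine, the latter being converted afterwards by an amidotransferase. Ears2 (chr7:122037213-122067263, mm10, minus strand) had 19.8, 21.8 and 19.0 CPM in the controls and 8.41, 9.39 and 6.83 CPM after H/R. The highest H/R library was below the lowest control by a wide margin, and 40.6% of the control mean was left (log2 fold change -1.30, SE 0.20, adjusted p = 0.0002492 by edgeR). These values rest on 116 to 168 counts per library. The annotated span of Ears2 overlaps that of Ubfd1 on the other strand by 89 bases, and the share of reads from Ubfd1 was not tested. Ears2 kept its call and its direction under each alternative that was run.

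The other 14 tested mitochondrial genes did not pass, with log2 fold changes from -0.65 for Aars2 to 0.39 for Lars2. Lars2, Farsa and Vars2 had the largest positive values of all members, and none of these passed with all libraries. Lars2, for leucine, had 22.0, 25.1 and 33.2 CPM in the controls and 29.1, 41.8 and 34.2 CPM after H/R, and the groups overlapped (log2 fold change 0.39, SE 0.18, adjusted p = 0.1135 by edgeR). Vars2, for valine, had 33.8, 18.2 and 27.4 CPM against 37.0, 35.4 and 29.2 CPM, where control replicate 1 lay among the H/R libraries (log2 fold change 0.36, SE 0.20, adjusted p = 0.1817 by edgeR). Lars2 passed without control replicate 3 (log2 fold change 0.57, adjusted p = 0.02394) and Vars2 without control replicate 1 (0.57, adjusted p = 0.02286, both by edgeR). Yars2, Mars2 and Sars2, for tyrosine, methionine and serine, had log2 fold changes of 0.33, 0.30 and 0.26, each with overlapping groups.

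Further values lay on both sides of 0, at 0.16 for Pars2, 0.04 for Tars2, -0.03 for Hars2, -0.07 for Iars2, -0.18 for Nars2, -0.20 for Rars2, -0.24 for Fars2, -0.51 for Cars2 and -0.65 for Aars2 on the log2 scale. For Fars2 and Rars2 the call depended on 1 library each. Fars2 ranged from 5.67 to 21.6 CPM among the controls alone, and it passed without control replicate 1 (log2 fold change -0.62, adjusted p = 0.04917 by edgeR). Rars2 passed without control replicate 3 (-0.36, adjusted p = 0.04294 by edgeR). Wars2, the mitochondrial tryptophan enzyme, had 9 counts in 1 control library, 9 in 1 H/R library and 0 in the other 4, and it was not tested.

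The mitochondrial genes were measured less precisely than the cytosolic ones. Their mean counts per library ran from 22.3 to 844, and those of the cytosolic genes from 479 to 9334. The SE of the log2 fold change was 0.14 to 0.57 (median 0.26) for mitochondrial and 0.08 to 0.17 (median 0.10) for cytosolic genes. Of the 14 mitochondrial genes that did not pass, the 95% confidence interval excluded the cytosolic median in 8 and a log2 fold change of -1 in 10. For the rest, including Aars2, Cars2 and Fars2, a decrease like that of the cytosolic genes could not be told from no change at this depth. As a further background, picked with the values already known, the genes averaging at least 30 CPM were counted alone, and 25.4% of them were lower. All 20 cytosolic genes reached that level and 13 were lower, while the 4 mitochondrial genes that reached it, Iars2, Rars2, Vars2 and Lars2, did not pass by edgeR's test, DESeq2 or edgeR's exact test, nor at an unadjusted p under 0.05.

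Levels of different genes were compared as CPM per kb of annotated exon. In the controls the cytosolic genes spanned 17.7 for Farsa to 292 for Gars, and the tested mitochondrial genes 0.72 for Mars2 to 24.1 for Rars2. Gars, Nars and Eprs were the highest in both groups, with 292 ± 21.8, 283 ± 22.0 and 258 ± 15.3 CPM per kb in the controls and 185 ± 12.6, 160.0 ± 14.4 and 110.0 ± 8.82 after H/R. In the controls the mean ± SD of these 3 genes overlapped. After H/R those of Gars and Nars still did, and Eprs lay below both. Rars, which did not pass, stood at 123 ± 20.5 and 109 ± 13.2 CPM per kb, so that Eprs and Rars were level after H/R. Wars moved furthest in the order of the 20 cytosolic genes, from the rank of 9 in the controls to 18 after H/R, with 88.6 ± 2.91 and 29.3 ± 3.13 CPM per kb. After H/R it was level with Hars (29.5 ± 1.25). Dars, at 54.2 ± 2.54 and 56.3 ± 3.30 CPM per kb, went from rank 14 to rank 9 with a difference that did not pass the test.

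Summed over the 20 genes, the cytosolic synthetases made up 6894, 6884 and 6833 CPM in the controls and 4014, 4125 and 4290 CPM after H/R. The H/R sums lay far below the control sums (means 6870 ± 32.9 and 4143 ± 139 CPM). The 16 mitochondrial genes summed to 300.3, 288 and 276 CPM in the controls and to 276, 272 and 287 CPM after H/R, with overlapping groups. Summed as CPM per kb, in which short genes weigh more, they were 90.2, 91.1 and 84.1 in the controls and 79.4, 80.05 and 82.6 after H/R, and here every H/R library lay below every control. Ears2 alone gave 9.89 ± 0.706 of this sum in the controls and 4.01 ± 0.632 after H/R. As plain shares of the gene counts, without TMM scaling, the cytosolic genes took 0.638% ± 0.00876 in the controls and 0.446% ± 0.0132 after H/R, and the mitochondrial genes 0.0267% ± 0.00125 and 0.0300% ± 0.000778. By plain share every H/R library lay above every control for the mitochondrial genes, so the direction of their sum depended on the measure. The ratio of cytosolic to mitochondrial level, summed as CPM per kb, does not depend on the scaling of a library. It was 22.5, 22.4 and 24.0 in the controls and 15.5, 15.9 and 16.1 after H/R. Cytosolic synthetase mRNA was thus about 23.0 ± 0.904 times as abundant as mitochondrial synthetase mRNA in the controls and 15.8 ± 0.274 times after H/R. No test was run on these sums.

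For 15 amino acids a cytosolic gene could be set beside its mitochondrial counterpart, and for 14 of these pairs a ratio was had in every library. In 7 pairs the log2 ratio of CPM per kb was lower in every H/R library than in every control library, and in 7 the groups overlapped. Across all tested genes taken in turn against the same mitochondrial partners, 15.0% of ratios lay below in this way. The largest shift was in the tyrosine pair, where Yars over Yars2 was 6.08, 5.72 and 6.01 in the controls and 4.76, 4.67 and 4.27 after H/R. The serine pair, Sars over Sars2, followed with 6.10, 5.95 and 6.09 against 4.86, 4.55 and 4.69. In both, the cytosolic gene was lower and the mitochondrial gene did not pass. The pairs for leucine, isoleucine, methionine, asparagine and valine were the others without overlap, with a difference of the mean log2 ratio between -1.24 for Lars over Lars2 and -0.45 for Vars over Vars2. In the valine pair neither gene passed, with log2 fold changes of -0.05 for Vars and 0.36 for Vars2. In every other pair without overlap the cytosolic gene had been called lower from the same libraries, so these ratios add no support.

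The glutamate pair behaved in another way. Eprs and Ears2 were both lower, by log2 fold changes of -1.23 and -1.30, and their log2 ratio was 4.83, 4.55 and 4.74 in the controls and 4.65, 4.53 and 5.17 after H/R. The ratio overlapped between the groups, with means of 4.70 ± 0.14 and 4.78 ± 0.34. The alanine and cysteine pairs overlapped as well, with mean log2 ratios of 7.41 ± 0.73 and 7.43 ± 0.44 for Aars over Aars2, and 3.75 ± 0.58 and 3.65 ± 0.22 for Cars over Cars2. Aars2 and Cars2 were at 1.07 to 12.1 CPM in single libraries. Eprs also serves proline, and Pars2, the mitochondrial enzyme for that amino acid, had a log2 fold change of 0.16 that did not pass, beside -1.23 for Eprs. The tryptophan pair is not given since Wars2 was at 0 in 4 libraries.

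**Figure D3:**
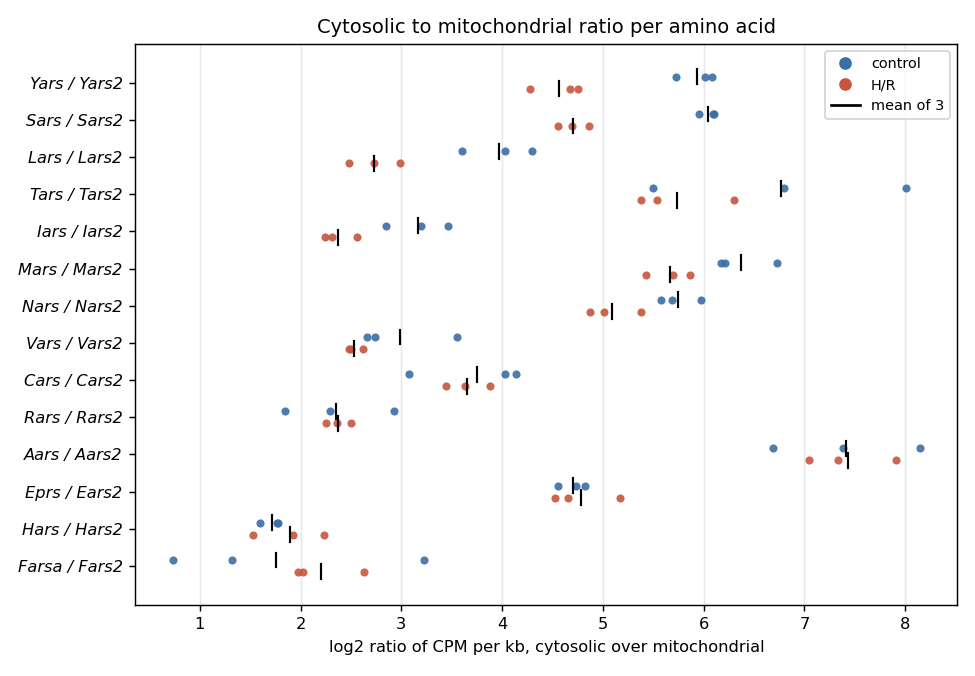
Log2 ratio of cytosolic over mitochondrial CPM per kb for the 14 amino acids with a ratio in every library, control libraries in blue, H/R libraries in red and the mean of 3 libraries as a black tick. The red points lie left of all blue points in 7 pairs, most widely for Yars over Yars2 and Sars over Sars2, while for Eprs over Ears2 they overlap.

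Other genes that make, modify or deliver charged tRNA were counted from a list of 40, of which 37 were tested, 4 were higher (10.8%) and 8 were lower (21.6%) after H/R. Of all tested genes 18.8% were higher and 19.0% lower, so the lower share was near that background. Their median log2 fold change was 0.04, near the 0.01 of all tested genes. Among the scaffold proteins of the multi-synthetase complex, Aimp1 was lower (59.7 ± 10.4 and 45.6 ± 2.16 CPM, log2 fold change -0.39, adjusted p = 0.03686 by edgeR). The other two scaffolds pointed in opposite directions without passing, Aimp2 at 0.47 (adjusted p = 0.05387) and Eef1e1 at -0.33 (adjusted p = 0.1013, both by edgeR). Aimp2 holds the complex together, and Kars and Dars bind to it.

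Charged tRNA is carried to the ribosome by elongation factors, with separate sets in the cytosol and in mitochondria. In the cytosol, Eef1a1, which binds charged tRNA, fell from 8378 ± 755 to 4443 ± 71.4 CPM (log2 fold change -0.92, adjusted p = 2.105e-06 by edgeR). The subunits of its exchange factor, Eef1b2, Eef1d and Eef1g, were lower by log2 fold changes of -0.77, -0.57 and -1.10. Of their mitochondrial counterparts, Tufm was at 0.24 and its exchange factor Tsfm at 0.32, and neither passed (adjusted p = 0.1659 and 0.3078 by edgeR). The difference between these compartments was not tested.

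Genes of tRNA maturation and export gave calls in both directions, with 4 of 18 tested higher and 2 lower. These shares, 22.2% and 11.1%, stand beside 18.8% and 19.0% of all tested genes and do not mark the group out. Xpot, the exportin that takes tRNA out of the nucleus, fell from 668 ± 31.6 to 410.2 ± 28.5 CPM (log2 fold change -0.70, adjusted p = 2.654e-05 by edgeR). Elac1, a tRNA 3′ processing nuclease, rose from 19.2 ± 2.02 to 33.3 ± 2.80 CPM (log2 fold change 0.79, adjusted p = 0.001307 by edgeR). Of the RNase P and RNase MRP subunits, Pop4 (0.75) and Pop5 (0.54) rose and Rpp40 fell by 0.71 on the log2 scale, and Tsen34, of the tRNA splicing endonuclease, rose by 0.64. Among genes of editing and of selenocysteine-tRNA, Sepsecs, which completes selenocysteine on the tRNA that Sars has charged with serine, was lower (-0.58, adjusted p = 0.02516 by edgeR). In mitochondrial amidation and formylation, Qrsl1 and Gatc, subunits of the amidotransferase that acts after Ears2, had log2 fold changes of 0.40 and 0.27, and Mtfmt, the formylase of the initiator tRNA, had -0.02. These 3 did not pass edgeR's test.

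The genes through which cells respond to amino acid shortage were read beside the synthetases. Atf4 had 745, 663 and 695 CPM in the controls and 348, 344 and 337 CPM after H/R. The H/R libraries lay close together and well below every control (log2 fold change -1.03, SE 0.08, adjusted p = 9.675e-07 by edgeR). Asns, the asparagine synthetase gene and a classic target of ATF4, had 579.9, 580.5 and 563 CPM against 340.0, 359 and 393 CPM, with the groups again apart (log2 fold change -0.66, SE 0.08, adjusted p = 4.095e-05 by edgeR). Of the 13 genes on this list 9 were lower (69.2%, against 19.0% of all tested genes) and 2 were higher (15.4%, against 18.8%). Ddit3, Ppp1r15a, Chac1 and Trib3, which are induced in the stress response, had log2 fold changes of -3.19, -2.05, -1.42 and -1.28, and Cebpg, a partner of ATF4 on DNA, fell by 0.69. Sesn2 rose by 0.69. Of the 4 kinases that phosphorylate eIF2 alpha, Eif2ak4, which senses uncharged tRNA, rose by 0.33, Eif2ak3, the kinase of the endoplasmic reticulum, fell by 0.74, and Eif2ak2 fell by 0.30, while Eif2ak1 stood at -0.02 and did not pass. This list was written with earlier results of these libraries known and is not independent of them.

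**Figure D4:**
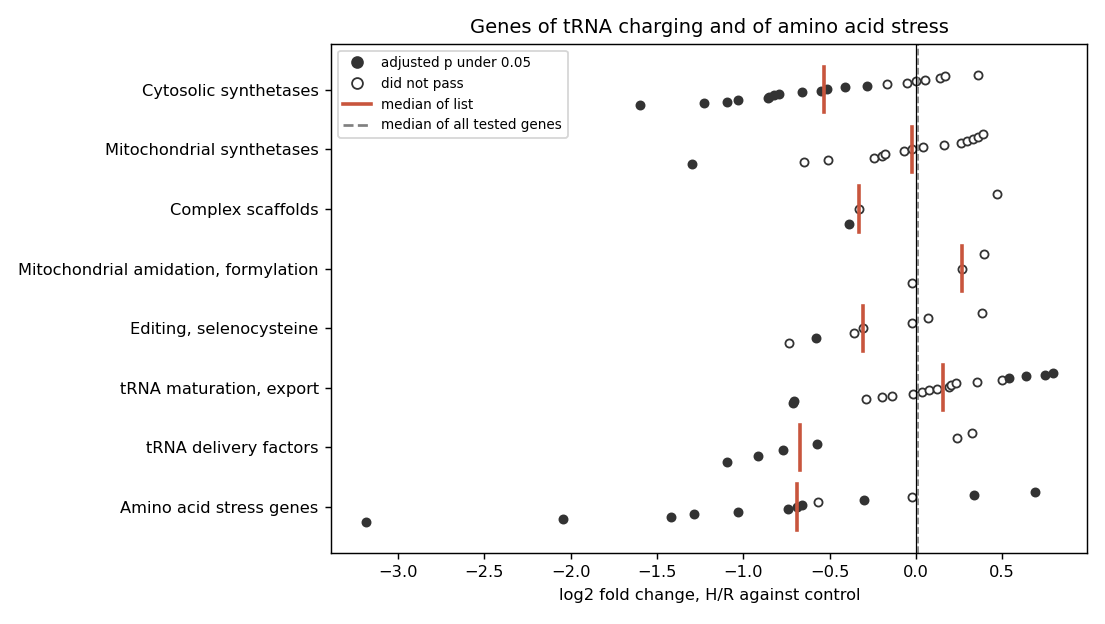
Log2 fold changes of the tested genes of each list, H/R against control, with filled points for an adjusted p under 0.05 in edgeR's test, a red line for the median of a list and a dashed line for the median of all tested genes. The cytosolic synthetases lie around -0.53 and the mitochondrial synthetases around -0.03, beside medians of -0.67 for the delivery factors, -0.69 for the amino acid stress genes and 0.16 for tRNA maturation and export.

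The loci of the 36 genes also gave rise to other transcripts in the deposited files. Of 59 lncRNA transcripts annotated to them, 51 overlap exons of the synthetase gene on the same strand. Of the 23 that were tested, 1 was lower, at the Aars locus, with a log2 fold change of -1.03 (adjusted p = 0.0415 by edgeR over 6779 lncRNAs, of which 4.93% passed in either direction). It shares exons with Aars, and reads of these transcripts cannot be told apart by position alone. Among 2805 circular RNAs, 2 came from Mars and 1 from Nars2, with at most 5 reads in a library, too few to compare.

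Total gene counts were 7267809 to 8371882 in the control libraries and 15639751 to 16830389 in the H/R libraries, with TMM factors of 0.920 to 0.938 and of 1.07 to 1.08. With the H/R counts thinned to the control depth no member changed its call. Of the neural stem cell markers, 5 of 8 were in the table, and their sum was 1404 to 1497 CPM in the controls and 1643 to 1734 CPM after H/R. The sum was mostly Vim (1221 and 1329 CPM) and Nes, which rose from 196 ± 16.3 to 331 ± 19.2 CPM. Sox2 was at 29.1 and 31.0 CPM, Msi1 at 9.65 and 6.77 CPM and Hes1 at 1.54 and 3.18 CPM, and these 3 and Vim did not pass. Fibroblast markers summed to 5764 to 8321 CPM in the controls and 5473 to 6816 CPM after H/R, led by Col1a1, and of its 5 genes Pdgfra alone passed, rising from 11.6 ± 1.59 to 29.5 ± 1.74 CPM (log2 fold change 1.35, adjusted p = 4.731e-05 by edgeR). The astrocyte and microglia markers summed to at most 1.37 CPM in a library. The 3 neuron markers in the table summed to 73.2 to 81.1 CPM and 32.8 to 37.9 CPM, nearly all of it Map2, while Tubb3 averaged 0.179 and 0.206 CPM. The neuron sum moved in the same direction as the cytosolic synthetases. Its part in the synthetase values was not tested.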

How the data were processed

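RNA-seq libraries of C17.2 NSCs, 3 per group, were grouped by the treatment given in the labels. The gene table holds the unnormalized counts per gene that the authors deposited. According to the submitters' processing notes, the tools were cutadapt 1.9.3, HISAT2 2.0.4, HTSeq 0.9.1, edgeR 3.16.5 and STAR 2.5.1b with the build mm10. The strand setting and the annotation release are not given in the sources used here. The deposited tables of genes, lncRNAs and circRNAs together have 18 columns of other values per sample. The gene table also has columns of the authors' own comparison (fold changes and p-values). None of these columns were used. Counts per lncRNA transcript were deposited in another table and fitted on their own, and those per circRNA junction are given as they are.

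Low counts were filtered in edgeR 4.0.16 (R 4.3.3) with filterByExpr, which kept 11104 genes and 6779 lncRNAs, and libraries were scaled by TMM. The groups were compared by the two-sided quasi-likelihood test without covariates, with Benjamini-Hochberg adjustment over all tested features, and an adjusted p under 0.05 was called. The biological coefficient of variation was 0.144. CPM per kb used the union of exons of protein-coding transcripts in GENCODE vM21 (mm10), which also gave the coordinates. The test was checked on simulated data. Replicates were compared first, and no library duplicated another (correlation of log2 CPM 0.965 to 0.986, chi-square per degree of freedom 9.03 to 30.1).

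A p-value here covers the variation among these libraries alone. With 3 against 3, exact permutation cannot go below 0.1. Reads copied by PCR and lacking molecular identifiers do not each stand for a molecule. The members and lists were chosen with earlier results of these data known. All 36 genes are named. Values of single libraries are given for the largest changes (at most 6 in each direction), for Gars and Kars, and for Atf4 and Asns. From the other lists, genes that passed may be named, and those named without passing were chosen after their values were seen. Overlaps between genes were taken from annotated gene spans, introns included, so the part that lies in exons is not given. By span, 11 members overlap another protein-coding gene, 10 of them on the opposite strand. As alternatives, DESeq2 1.42.0 or the exact test of edgeR replaced the test, RLE or no factors replaced TMM, the filter was dropped or set to 1 CPM in 3 libraries, the replicate number entered as a block, H/R counts were thinned to the median control depth, libraries were left out 1 at a time, and the study's cut-offs were used. Protein sequences were not used here.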

Additional observations from a re-analysis of the deposited data

How the results depend on the processing

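The 14 lower members kept their direction and their call, and the other 21 tested members did not pass, with DESeq2, edgeR's exact test, RLE factors, all genes with a count, a minimum of 1 CPM in 3 libraries and thinning of the H/R counts to the control depth. Among members that did not pass, the sign of values near 0 (Qars and Tars2) changed under some of these. Without scaling factors, which moves the median of all genes from 0.01 to 0.22, 3704 genes were higher and 1272 lower, so that 74.4% of the calls were higher in place of 49.7%. Then 6 members were higher (4 cytosolic, Dars, Farsa, Farsb and Hars, and 2 mitochondrial, Lars2 and Vars2), Kars (-0.07) and Mars (-0.20) did not pass, and of the other genes of tRNA charging 9 were higher and 5 lower. The medians were then -0.32 for the cytosolic and 0.19 for the mitochondrial genes, which is -0.54 and -0.04 relative to all genes. At the thresholds of the study, 646 genes were higher and 596 lower, 5 members were lower, 4 of them cytosolic, and of the other genes of tRNA charging 0 were higher and 1 lower.

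With each library left out in turn, 1571 to 2261 genes were higher and 1622 to 2313 lower. Among the members 0 to 2 were higher and 12 to 16 lower, among the cytosolic genes 0 to 1 and 11 to 14, among the mitochondrial genes 0 to 1 and 1 to 2, and among the other genes of tRNA charging 2 to 5 and 5 to 8. The lowest counts of the other genes came without H/R replicate 1 (2 higher) and H/R replicate 3 (5 lower). Members gained a call without control replicate 1 (Farsa, Vars2, Fars2 and Rars, the last at -0.29 with an adjusted p of 0.02406 by edgeR) and without control replicate 3 (Lars2 and Rars2). The cytosolic median stayed between -0.55 and -0.51. The mitochondrial median, near 0, ran from -0.11 to 0.046 and was positive without control replicate 1 (0.046), H/R replicate 1 (0.01) and H/R replicate 2 (0.03). The cause was not tested.

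Deviations from the group means correlated by 0.0392, 0.00417 and 0.0219 for libraries of the same number. For libraries of different numbers the values were -0.0314 to 0.00772. All were small, and whether libraries of the same number shared a culture or batch cannot be told from them. With the replicate number as a block, 2039 genes were higher and 1998 lower, the medians were -0.53 and -0.04, and no member changed its call. The SE of the mitochondrial genes, which have fewer counts, had a median of 0.26 beside 0.10 for the cytosolic genes.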
